A study of Mus musculus with 6 samples.

Results

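The genes described here encode enzymes that add methyl groups to histones and other proteins, or take them off, and that are named for that activity. They are the genes of the Kmt, Kdm, Setd, Smyd and Prmt series, chosen by symbol alone with Smyd1 left out, and each counts only through probe sets that the platform annotation ties to 1 symbol. The rule found 46 of 18193 genes, which held 124 of the 34945 probe sets with exactly 1 symbol. Of the 46, 13 had 1 probe set and 33 had more, up to 9 for Kdm5c.

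The arrays measured transcripts of C2C12, a line of mouse myoblasts. Its cells leave the cell cycle in suspension and fuse into myotubes when they differentiate. The PRDM2 knockdown group (PRDM2 KD S48) was a stable pool with an shRNA against PRDM2, a protein with a PR/SET domain, and the control group (GFP S48) was a stable pool with a control GFP shRNA. Cells of both groups had spent 48 hours in methylcellulose medium with 20% fetal calf serum to bring them to G0, and each group had 3 arrays. By the labels, a group's 3 samples are biological replicates taken from its pool, with neither separate transfections nor clones named, so p-values measure the spread between these samples. The comparison asks whether the transcripts of these enzymes differ in suspended myoblasts when PRDM2 is knocked down.

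Methylation of lysine on histone tails is written by SET domain enzymes of the KMT, SETD and SMYD series and removed by KDM enzymes, either amine oxidases or oxygenases with a JmjC domain. Methylation of H3K4 and H3K36 marks active genes, and that of H3K9 and H3K27 marks silent ones. PRMT enzymes methylate arginine on histones, RNA-binding proteins and ribosomal proteins. In muscle precursors these enzymes are known to act at the genes that are kept off in myoblasts and turned on in differentiation.

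Some properties of the arrays bear on all values. Median intensity was 10.6 to 11.3 on knockdown arrays and 10.6 to 12.1 on control arrays, and 55.1% to 58.2% of all probe sets on an array read under 16. On control array 3 the 5' Gapdh control probe set read 0.0992 of the 3' one, where the other 5 ranged between 0.704 and 1.14. The same array gave the lowest deposited value of the 6 for 22 of the 46 members (47.8%), against 27% of all genes. Knockdown array 3 and control array 3 also had a low signal of the Dap spike, a bacterial RNA added during labelling, with 42.3 and 43.1 where the other 4 gave 160 to 350. Differences are therefore also given among the 4 arrays of higher and the 2 of lower spike signal. The difference at lower spike signal is knockdown array 3 minus control array 3, 1 array each. Control array 3 is also the array of low Gapdh ratio, so the 2 properties cannot be told apart there. The probe set that represents Prdm2, the targeted gene, read 58.0, 51.5 and 29.0 on knockdown arrays 1 to 3 and 86.2, 73.6 and 47.1 on control arrays 1 to 3, with overlapping groups and a log2 difference of -0.51 that did not pass (limma adjusted p = 0.313). The marker lists for cell state moved strongly: 11 of 12 myotube markers were higher past the threshold, with summed intensities of 8262 to 10033 on knockdown and 265 to 497 on control arrays, and 9 of 9 measured markers of dividing cells were lower, with sums of 143 to 208 and 895 to 1160. Of 7 myoblast markers 2 were higher, 1 was lower and 4 did not pass, with sums of 1763 to 2121 and 1537 to 1856, so transcripts of the labelled cell type were present in both groups. Among 35 measured markers of 6 other cell types, 3 were higher, 3 were lower and 18 had both group means under 16. The 3 lower were all among 5 measured markers of Schwann or neural cells (list median -0.90). Of the 3 higher, 2 were among 6 markers of smooth muscle cells (list median 0.66) and 1 among 7 of fibroblasts (list median 0.10).

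Of the 46 genes, 4 passed limma's test at an adjusted p under 0.05 on log2(intensity + 16). The arginine methyltransferase genes Prmt3 and Prmt6 and the demethylase gene Kdm7a were higher in the knockdown, and the arginine methyltransferase gene Prmt2 was lower. That is 8.7% of the members, against 5.16% of all genes (2.96% higher and 2.19% lower). Among genes with a group mean of at least 16 it was 4 of 43 (9.3%), against 8.26% of 10954. The count of 4 fell to 0 without knockdown array 1 or 3 or control array 1, to 1 without knockdown array 2 or control array 3, to 2 without control array 2, and to 0 on the 4 arrays of higher spike signal. The count over all genes fell too, from 938 to between 444 and 815 with 1 array left out. None of the 20 genes of the KMT2, KMT5, SETD and SMYD series passed, where 4 had an unadjusted p under 0.05. The median log2 difference of the 46, knockdown minus control, was -0.02, with a range of -1.05 to 0.83, and that of all genes was -0.00. At an unadjusted p under 0.05 stood 11 of the 46 (23.9%), against 15.8% of all genes. With a group mean of at least 16 it was 11 of 43 (25.6%), against 23.6% of 10954. Knockdown and control values did not overlap on the normalized scale for 9 of the 46 (19.6%; 5 higher and 4 lower), against 20.6% of all genes (11% higher and 9.5% lower). With a group mean of at least 16 the shares without overlap were 20.9% of members and 25.5% of all genes. Over the 46, leaving out control array 2 gave 16 genes without overlap and leaving out control array 3 gave 15. The 4 arrays of higher spike signal gave 20. Fewer arrays make separation easier, and the share of all genes without overlap was not counted on these arrays. In bulk RNA a lower value can come from less RNA per cell or from fewer cells that make it, and the 2 cannot be told apart here. The shift of myotube and dividing cell markers stood beside every one of these differences, and its part in them was not tested.

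**Figure D1:**
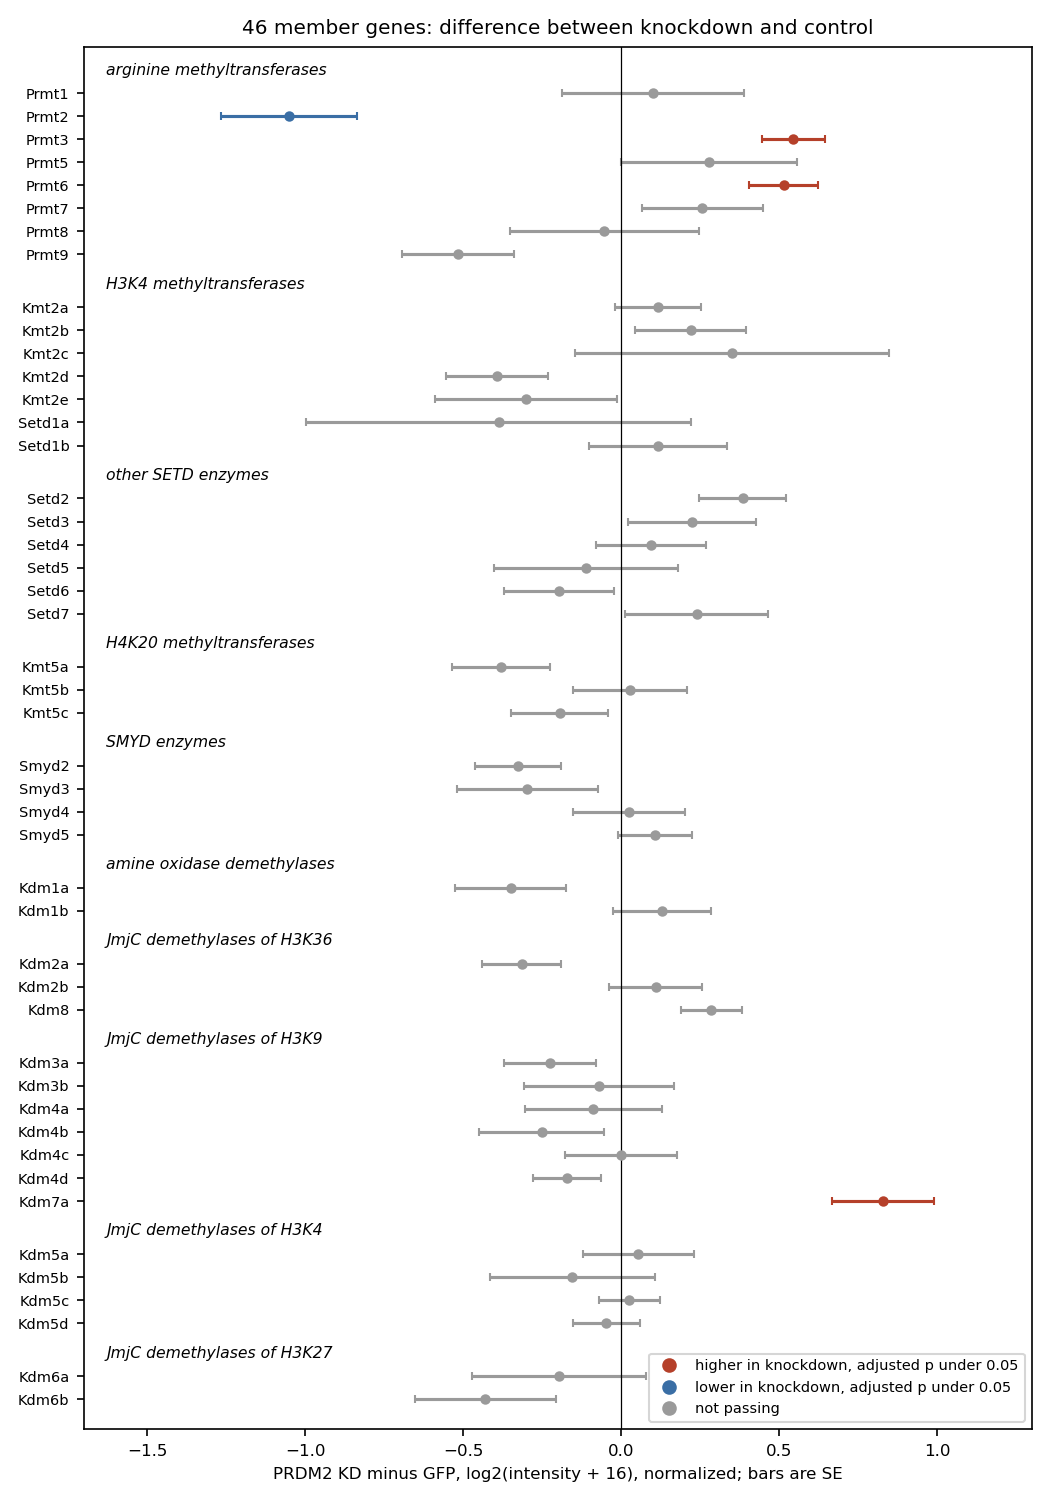
Difference between PRDM2 KD and GFP arrays for each of the 46 genes, as the difference of mean log2(intensity + 16) after quantile normalization with its SE from limma, grouped by role. Prmt3, Prmt6 and Kdm7a lie to the right of 0 and Prmt2 to the left in colour, and the 42 genes in grey did not pass.

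The bases before the RefSeq start of the 4 passing genes are shown because 3 of them differed in the same direction and 1 in the other. They come from RefSeq's table for GRCm38.p6, are read 5′ to 3′ along the gene, end at the base before the start, and have the E-box motif CANNTG in capitals where it occurs. For Kdm7a the window is chr6:39206774-39207023 on the minus strand. For Prmt3 it is chr7:49778108-49778357 on the plus strand. For Prmt6 it is chr3:110251000-110251249 and for Prmt2 chr10:76237866-76238115, both on the minus strand.
Kdm7a: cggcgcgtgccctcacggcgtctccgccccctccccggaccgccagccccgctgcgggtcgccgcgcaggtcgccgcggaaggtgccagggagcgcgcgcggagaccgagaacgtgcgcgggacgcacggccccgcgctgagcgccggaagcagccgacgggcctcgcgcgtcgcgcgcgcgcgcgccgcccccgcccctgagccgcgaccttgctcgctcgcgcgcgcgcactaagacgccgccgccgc
Prmt3: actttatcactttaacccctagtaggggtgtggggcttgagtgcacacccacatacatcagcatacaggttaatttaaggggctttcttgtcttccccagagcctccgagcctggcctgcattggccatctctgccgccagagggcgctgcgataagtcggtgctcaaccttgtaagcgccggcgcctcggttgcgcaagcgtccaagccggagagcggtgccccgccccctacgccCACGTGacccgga
Prmt6: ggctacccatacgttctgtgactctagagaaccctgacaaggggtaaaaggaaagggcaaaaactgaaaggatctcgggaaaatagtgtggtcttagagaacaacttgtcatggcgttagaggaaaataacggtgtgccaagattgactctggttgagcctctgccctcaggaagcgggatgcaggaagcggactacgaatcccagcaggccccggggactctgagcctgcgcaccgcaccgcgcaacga
Prmt2: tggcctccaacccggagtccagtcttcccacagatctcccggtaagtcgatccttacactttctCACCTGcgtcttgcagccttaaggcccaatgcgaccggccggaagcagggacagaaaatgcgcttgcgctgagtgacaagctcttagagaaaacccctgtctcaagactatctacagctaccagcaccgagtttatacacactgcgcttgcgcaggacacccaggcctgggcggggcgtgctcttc

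The 4 windows differed in GC content and in the motifs they held. Kdm7a had 82.0% GC with 56 CpG and no CANNTG, whereas Prmt3 had 60.4% GC, Prmt2 57.2% and Prmt6 54.0%, against a median of 52.4% over all windows in the table. Prmt3 held the E-box motif at 1 place, where its letters are CACGTG, starting 13 bases before the gene's start. Prmt2 held it at 1 place, as CACCTG, starting 186 bases before. The motif CANNTG reads the same pattern on both strands and includes CAGCTG, which occurs in none of the 4. GGGCGG, the letters of a GC box, occurred 3 times for Kdm7a and once each for Prmt3 and Prmt2, and CCGGAAG, an ETS motif, once each for Kdm7a and Prmt2, with both strands searched. Prmt6 had none of these. Of the 46 members 37 matched the table with 48 windows, and 25 of the 48 (52.1%) held CANNTG against 66.2% of 32851 windows in all. GGGCGG was in 64.6% of members' windows against 32.7% of all, CCGGAAG in 12.5% against 6.91% and CAGCTG in 10.4% against 13%. Members' windows were also richer in GC, with a median of 60.4% against 52.4% of all. The motif shares were not matched for GC. A match of letters is a description of the window, not a site.

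Of the 8 arginine methyltransferase genes, 2 were higher, 1 was lower and 5 did not pass, with a median log2 difference of 0.18. That is 37.5% of a small group, against 5.16% of all genes and 8.26% of those with a group mean of at least 16. Carm1, an enzyme of the same family outside the symbol rule, did not pass (limma adjusted p = 0.145). Prmt2 encodes a weakly active enzyme with an SH3 domain that is known as a coactivator of nuclear receptors. Its 2 probe sets were both lower in the knockdown. The probe set 1437234_x_at, which represents the gene, read 295, 239.8 and 163 on knockdown arrays 1 to 3 and 507, 412 and 461 on control arrays 1 to 3. The other, 1416844_at, read 161, 140.5 and 171 on knockdown arrays and 290.3, 324 and 296 on control arrays. At neither probe set did the groups overlap, and mean intensities in the knockdown were 50.6% and 51.9% of those in the control. For the gene the difference was -1.05 on the log2 scale (SE 0.216, limma adjusted p = 0.0429). Over all probe sets 1416844_at passed at -0.97 (SE 0.114, limma adjusted p = 0.00965), with less spread between arrays, while 1437234_x_at stood at an adjusted p of 0.0675 in the same limma fit. The representing probe set differed by -0.74 at higher and -1.67 at lower spike signal, and 1416844_at by -0.96 and -0.99. The gene's limma adjusted p rose to 0.142 and 0.121 without control array 1 or 3 and to 0.0582, 0.112 and 0.0764 without knockdown array 1, 2 or 3, and that of 1416844_at rose past the threshold, to 0.0591, without knockdown array 1.

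**Figure D2:**
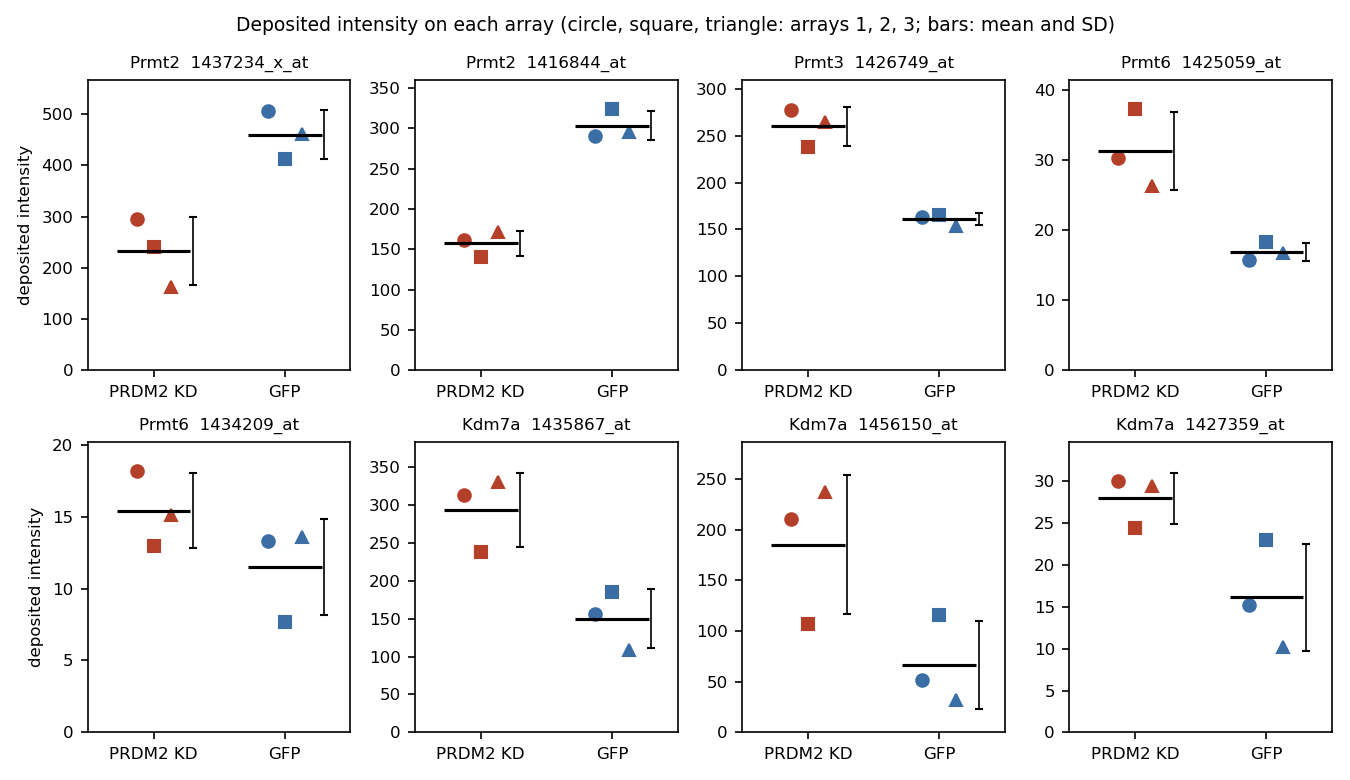
Deposited intensity on each array, on linear axes from 0, for 8 probe sets of Prmt2, Prmt3, Prmt6 and Kdm7a, with PRDM2 KD left of GFP; symbols are arrays 1, 2 and 3, and bars are the mean and SD of 3 arrays. The groups are apart at both Prmt2 probe sets, at 1426749_at of Prmt3, at 1425059_at of Prmt6 and at 1435867_at and 1427359_at of Kdm7a, and overlap at 1434209_at of Prmt6 and 1456150_at of Kdm7a.

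Prmt3 encodes a cytosolic enzyme whose main known substrate is a protein of the small ribosomal subunit. Its brightest probe set, 1426749_at, read 277, 238 and 264 on knockdown arrays and 163, 166 and 154 on control arrays, so the lowest knockdown value was well above the highest control value. Means were 259.7 ± 20.3 and 161 ± 6.22 (SD, n = 3 each), which is a log2 difference of 0.54 (SE 0.10, limma adjusted p = 0.0290). At higher spike signal the difference was 0.58, and at lower 0.46. A dimmer probe set, 1457332_at, read 16.9, 16.2 and 17.1 on knockdown arrays and 6.76, 13.5 and 8.48 on control arrays, also with no overlap, without passing (0.39 on the log2 scale, adjusted p = 0.159 by limma over all probe sets). The 3 other Prmt3 probe sets had both means under 16. The call was kept without control array 3 (limma adjusted p = 0.0402) and was lost without control array 1 or 2 (0.118 and 0.0758) and without knockdown array 1, 2 or 3 (0.126, 0.0642 and 0.104).

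Prmt6 encodes a nuclear enzyme that methylates an arginine of histone H3 next to the lysine written by H3K4 methyltransferases. Its probe set 1425059_at read 30.3, 37.2 and 26.3 on knockdown arrays and 15.7, 18.2 and 16.7 on control arrays. The values of all 3 knockdown arrays lay above those of the control, but the signal was low in both groups. It differed by 0.51 on the log2 scale (SE 0.108, limma adjusted p = 0.0460), and it was 0.61 at higher and 0.31 at lower spike signal. The other probe set, 1434209_at, read 18.2, 12.99 and 15.1 on knockdown arrays and 13.3, 7.68 and 13.6 on control arrays, with overlapping groups and a log2 difference of 0.20 (limma adjusted p = 0.681 over all probe sets). This was the call nearest the threshold: leaving out any 1 of the 6 arrays took its limma adjusted p to between 0.0654 and 0.163, the first without knockdown array 3 and the second without knockdown array 1, with 0.158, 0.105 and 0.0840 without control array 1, 2 or 3 and 0.129 without knockdown array 2.

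The other 5 arginine methyltransferase genes did not pass. Prmt9, which makes symmetric dimethylarginine, read 36.05, 41.8 and 41.5 on knockdown arrays and 58.1, 52.2 and 73.9 on control arrays. Its groups did not overlap, with a log2 difference of -0.52 (SE 0.178, limma adjusted p = 0.210) that was -0.33 without control array 3. Prmt1, the main enzyme of asymmetric dimethylation, differed by 0.10 with a 95% interval of -0.59 to 0.79. Prmt5, the main enzyme of symmetric dimethylation, differed by 0.28 (interval -0.38 to 0.94) with -0.09 at higher and 1.02 at lower spike signal. Prmt7 and Prmt8 differed by 0.26 and -0.05. The intervals of Prmt1 and Prmt5 are wide enough to hold differences as large as that of Prmt3 in either gene. For each of the 4 passing genes the exact two-sided permutation p over the 6 arrays was 0.1, the smallest that 3 arrays against 3 allow.

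Among the 7 genes grouped by name, not by measured activity, as H3K4 methyltransferases, none passed. Their log2 differences ran from -0.39 to 0.35 with a median of 0.12. Kmt2d, which places H3K4 methylation at enhancers and takes part in muscle differentiation, read 162, 95.7 and 123 on knockdown arrays and 167, 176 and 132 on control arrays. The deposited values overlap, and the normalized ones do not (log2 difference -0.39, SE 0.161, limma adjusted p = 0.301), and without knockdown array 2 the difference was -0.24. Its close relative Kmt2c read 72.2, 204 and 104 on knockdown arrays and 100.3, 159 and 32.1 on control arrays. Arrays of 1 group differed severalfold here, and the difference on the log2 scale was 0.35 (SE 0.497, limma adjusted p = 0.847), with -0.12 without control array 3, -0.03 without knockdown array 2, 0.73 without control array 2 and 0.65 without knockdown array 1. Setd1a, a main source of H3K4 trimethylation, read 99.7, 133 and 457 on knockdown arrays and 199, 161 and 393 on control arrays, with array 3 highest in both groups. Its difference of -0.39 (SE 0.608, limma adjusted p = 0.869) became 0.06 without control array 3 and 0.03 without knockdown array 1, while it was -0.68 without control array 2, -0.18 without knockdown array 2 and -1.02 without knockdown array 3. Another Setd1a probe set, 1427116_at, was opposite in sign, with 72.6, 67.3 and 66.3 on knockdown arrays and 59.0, 61.9 and 39.1 on control arrays (log2 difference 0.24, limma adjusted p = 0.453 over all probe sets). Kmt2a, Kmt2b, Kmt2e and Setd1b differed by 0.12, 0.22, -0.30 and 0.12.

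The 6 other SETD genes ran from -0.20 to 0.38 and none passed. Setd2, which encodes the enzyme that trimethylates H3K36 along transcribed genes, had the largest difference among them and was read by 1 probe set. It gave 145, 129.9 and 183 on knockdown arrays and 119, 109 and 88.6 on control arrays, so the groups were apart by a narrow gap. Its log2 difference was 0.38 (SE 0.139, limma adjusted p = 0.233), with 0.22 at higher and 0.70 at lower spike signal and 0.25 without knockdown array 3. Setd3, which methylates a histidine of actin, and Setd7, which methylates histone H3 and many other proteins, differed by 0.22 and 0.24. Setd4 had both group means under 16.

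The 3 genes for H4K20 methyltransferases and the 4 SMYD genes held no passing member either. Kmt5a, the enzyme of H4K20 monomethylation, whose level follows the cell cycle, read 118, 98.5 and 130.1 on knockdown arrays and 122, 166 and 146 on control arrays. The groups overlapped, with a log2 difference of -0.38 (SE 0.154, limma adjusted p = 0.296). Kmt5b and Kmt5c, which add further methyl groups to the same lysine, differed by 0.03 and -0.19. Smyd2, which methylates histones, chaperones and other proteins and is found in muscle, read 313, 284 and 254 on knockdown arrays and 375, 305 and 330.0 on control arrays. Knockdown array 1 read above control array 2, so the groups overlapped, with a log2 difference of -0.33 (SE 0.135, limma adjusted p = 0.308). Smyd3, Smyd4 and Smyd5 differed by -0.30, 0.02 and 0.11.

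Of the 18 demethylase genes 1 passed, Kdm7a, which is 5.56% against 5.16% of all genes. Among the 18, 6 differences were above 0 and 12 below, with a median of -0.08. Kdm7a pairs a PHD finger that binds methylated H3K4 with a JmjC domain that removes dimethylation of H3K9 and H3K27. Its representing probe set, 1435867_at, read 313, 238 and 329.7 on knockdown arrays and 156, 185 and 109 on control arrays. Array 2 was the lowest of the knockdown and the highest of the control, and the groups did not overlap. Means were 294 ± 48.7 and 149.9 ± 38.6 (SD, n = 3 each), with a log2 difference of 0.83 (SE 0.161, limma adjusted p = 0.0350), or 0.63 at higher and 1.23 at lower spike signal. The call was kept without control array 2 (limma adjusted p = 0.0354) or knockdown array 2 (0.0443), and was lost without control array 1 or 3 (0.116 and 0.0862) or knockdown array 1 or 3 (0.142 and 0.123).

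The 2 other Kdm7a probe sets with a mean of at least 16 had positive differences too. The probe set 1456150_at read 210.0, 107 and 237 on knockdown arrays and 51.2, 115 and 32.4 on control arrays. Knockdown array 2 read below control array 2, so the groups overlapped, and the largest difference among the 124 probe sets, 1.27 (SE 0.391), had a limma adjusted p of 0.209. The third, 1427359_at, read 30.0, 24.5 and 29.4 on knockdown arrays and 15.2, 23.0 and 10.3 on control arrays, with no overlap (log2 difference 0.48, limma adjusted p = 0.182). In that fit over all probe sets 1435867_at itself missed the threshold, at an adjusted p of 0.0536 by limma. The remaining 2 read 3.30 or less on every array.

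The other 6 genes for JmjC demethylases of H3K9 (Kdm3a, Kdm3b and Kdm4a to Kdm4d) ran from -0.25 to -0.00 and did not pass, and Kdm4d had both means under 16. Kdm3a, which removes H3K9 mono- and dimethylation, differed by -0.23 (interval -0.57 to 0.12). Of the 2 amine oxidase genes, Kdm1a encodes LSD1, which works in the CoREST repressor complex. It read 431, 314 and 378 on knockdown arrays and 501, 388 and 476 on control arrays at 1426762_s_at. The highest knockdown value was above the lowest control value, so the groups overlapped (log2 difference -0.35, SE 0.176, limma adjusted p = 0.431), and the difference was -0.22 without control array 3. Its other probe set, 1426761_at, differed by -0.39 without passing (limma adjusted p = 0.440), and Kdm1b by 0.13.

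Of the 3 genes for JmjC demethylases of H3K36, Kdm2a, which binds unmethylated CpG islands, read 194, 145 and 175 on knockdown arrays and 209, 198 and 197 on control arrays. The groups did not overlap, though the highest knockdown value was close to the lowest control value (log2 difference -0.31, SE 0.125, limma adjusted p = 0.285). Kdm8 read 26.96, 30.5 and 29.6 on knockdown arrays and 19.7, 26.4 and 17.1 on control arrays. It had the lowest adjusted p of the 42 members that did not pass, 0.202 by limma, with a log2 difference of 0.29. Kdm2b, which recruits a Polycomb complex to CpG islands, differed by 0.11 at its representing probe set and by 0.27 at 1452198_at, where the groups were apart without passing (limma adjusted p = 0.238).

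None of the genes for demethylases of H3K4 and H3K27 passed. For H3K4, the 4 representing differences ran from -0.15, for Kdm5b, to 0.05, for Kdm5a, and Kdm5d had both means under 16. Kdm5b read 98.02, 181 and 144 on knockdown arrays and 119.7, 208 and 118 on control arrays, and its small difference turned to 0.04 without control array 2 and 0.07 without knockdown array 1, with -0.31 without control array 1 and -0.35 without knockdown array 2. Kdm5c stood at 0.03 at its representing probe set, but 1426497_at read 50.1, 31.9 and 34.4 on knockdown arrays and 59.7, 80.9 and 57.4 on control arrays. There the groups were apart without passing (-0.66 on the log2 scale, SE 0.150, adjusted p = 0.0920 by limma). For H3K27, Kdm6b, an enzyme induced by many signals that removes trimethylation, read 236, 230.4 and 222 on knockdown arrays and 314, 445 and 185 on control arrays at 1456610_at. The 3 knockdown arrays were close together and the control arrays spread around them (log2 difference -0.43, SE 0.222, limma adjusted p = 0.447). Leaving out control array 2 gave -0.20, and leaving out control array 3 gave -0.66. Its probe set 1447612_x_at read 82.3, 55.2 and 76.0 on knockdown arrays and 93.9, 134 and 132 on control arrays, apart but not passing (log2 difference -0.74, SE 0.196, limma adjusted p = 0.142). Kdm6a, on the X chromosome in mouse, differed by -0.20 at one probe set and by 0.35 at another.

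Over all 124 probe sets of the members, 2 passed in the fit of every named probe set, 1416844_at of Prmt2 and 1426749_at of Prmt3, 1 lower and 1 higher, which is 1.61% against 3.1% of all probe sets (1.81% higher and 1.29% lower). At an unadjusted p under 0.05 stood 19 (15.3%), against 12.8%. Both group means were under 16 for 47 of the 124, and for 16671 of all 34945. Of the 24 genes with at least 2 probe sets of mean 16 or more, 8 had differences of both signs among them (Kdm5a, Kdm5c, Kdm6a, Kmt2c, Setd1a, Setd1b, Setd5 and Setd7), and for Setd5 they were -0.11 at the representing probe set and 0.45 at 1439515_at. None of the 8 held a passing probe set, so no member had calls in both directions.

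**Figure D3:**
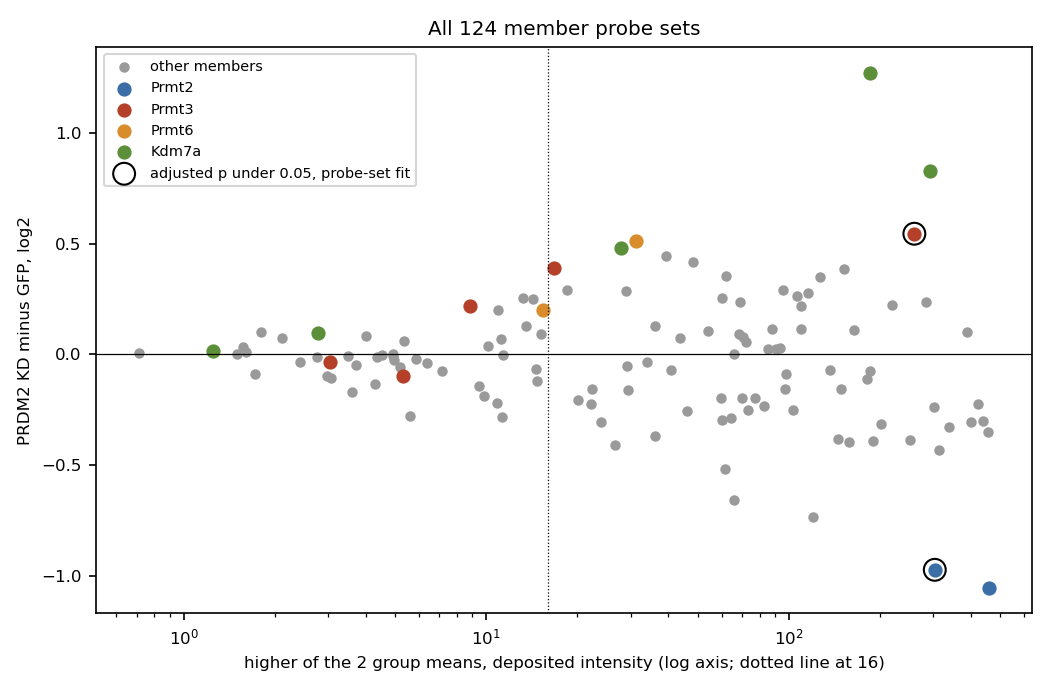
Log2 difference, PRDM2 KD minus GFP, of each of the 124 probe sets against the higher of its 2 group means in deposited intensity (log axis, dotted line at 16). The 2 ringed points, 1 of Prmt2 and 1 of Prmt3, passed in the fit over all probe sets; the Kdm7a point with a difference of 1.27 did not.

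Partners of these enzymes were read from 5 lists, and 1 of 67 measured genes passed (5.16% of all genes did). None of 14 subunits of COMPASS, the complexes that hold H3K4 methyltransferases, passed. The largest difference there was that of Wdr82, which binds Setd1a and Setd1b, with 279, 287 and 320.0 on knockdown arrays and 211, 184 and 193 on control arrays. Its groups were well apart, and the difference on the log2 scale was 0.47 (SE 0.124, limma adjusted p = 0.0982). None of 6 PRMT partners passed, with the largest difference at Btg2, an activator of Prmt1, which differed by -0.57 (limma adjusted p = 0.461). None of 12 measured members of the LSD1 complex passed, with the largest at Rcor2, a CoREST protein (-0.47, limma adjusted p = 0.346). Of 10 measured genes of methyl donor metabolism none passed, and the largest was Adk, adenosine kinase, which clears a product of the methylation cycle. Adk read 407, 327 and 274 on knockdown arrays and 223, 128 and 180.3 on control arrays (log2 difference 0.80, SE 0.232, limma adjusted p = 0.134).

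The passing gene was Hr, hairless, in the list of 25 measured enzymes of the same families under other names. Hr encodes a JmjC protein known as a corepressor of nuclear receptors. It read 17.0, 9.79 and 11.01 on knockdown arrays and 36.1, 43.3 and 39.1 on control arrays, with every knockdown value under every control value. It differed by -0.98 on the log2 scale (SE 0.133, limma adjusted p = 0.00923), with -0.88 at higher and -1.17 at lower spike signal. The list median was -0.07.

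**Figure D4:**
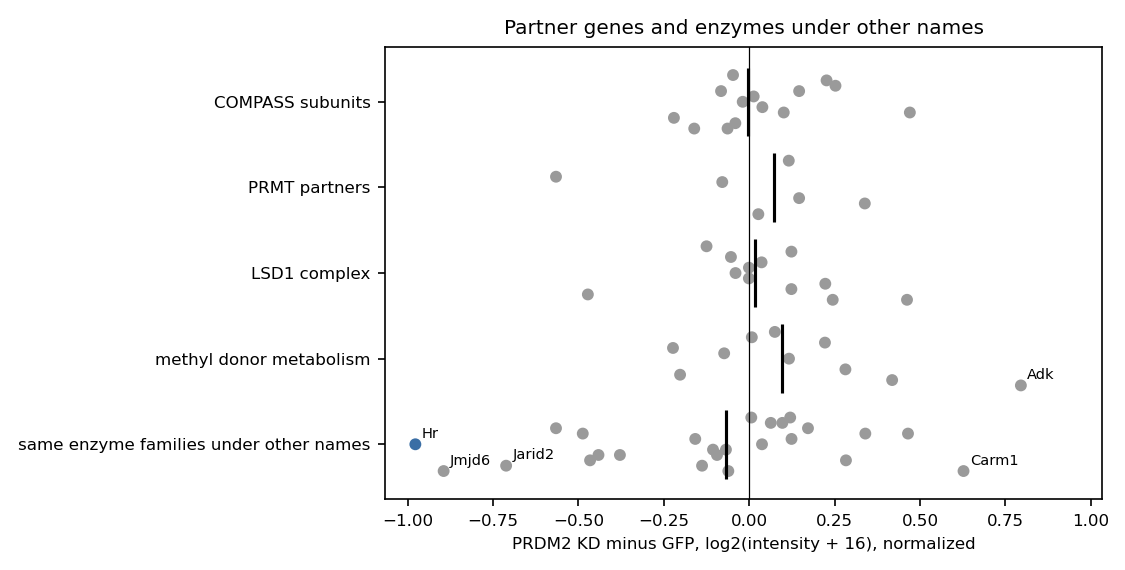
Log2 difference, PRDM2 KD minus GFP, of each measured gene of 5 partner lists, with a bar at each list's median. Hr, in blue at -0.98, is the passing gene; Jmjd6, Jarid2, Carm1 and Adk are labelled as differences above 0.6 in size that did not pass.

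Each of the 4 members' calls was lost in most other ways of processing. Limma adjusted p ran from 0.00548 to 0.309 for Prmt3 and from 0.00701 to 0.195 for Kdm7a. For Prmt2 it ran from 0.00593 to 0.216, and for Prmt6 from 0.0105 to 0.163. Over 20 alternatives Prmt3 passed in 8, Kdm7a in 7, Prmt2 in 6 and Prmt6 in 2, and all 4 genes kept their direction in all 20. With the mean of all probe sets of a gene the log2 difference was 0.20 for Prmt3 and 0.54 for Kdm7a, and that of Prmt6 was 0.84 with an offset of 1 and 0.23 with an offset of 64. The probe set 1416844_at of Prmt2 passed in 15 of 19 alternatives, with limma adjusted p from 0.00359 to 0.0780.

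**Figure D5:**
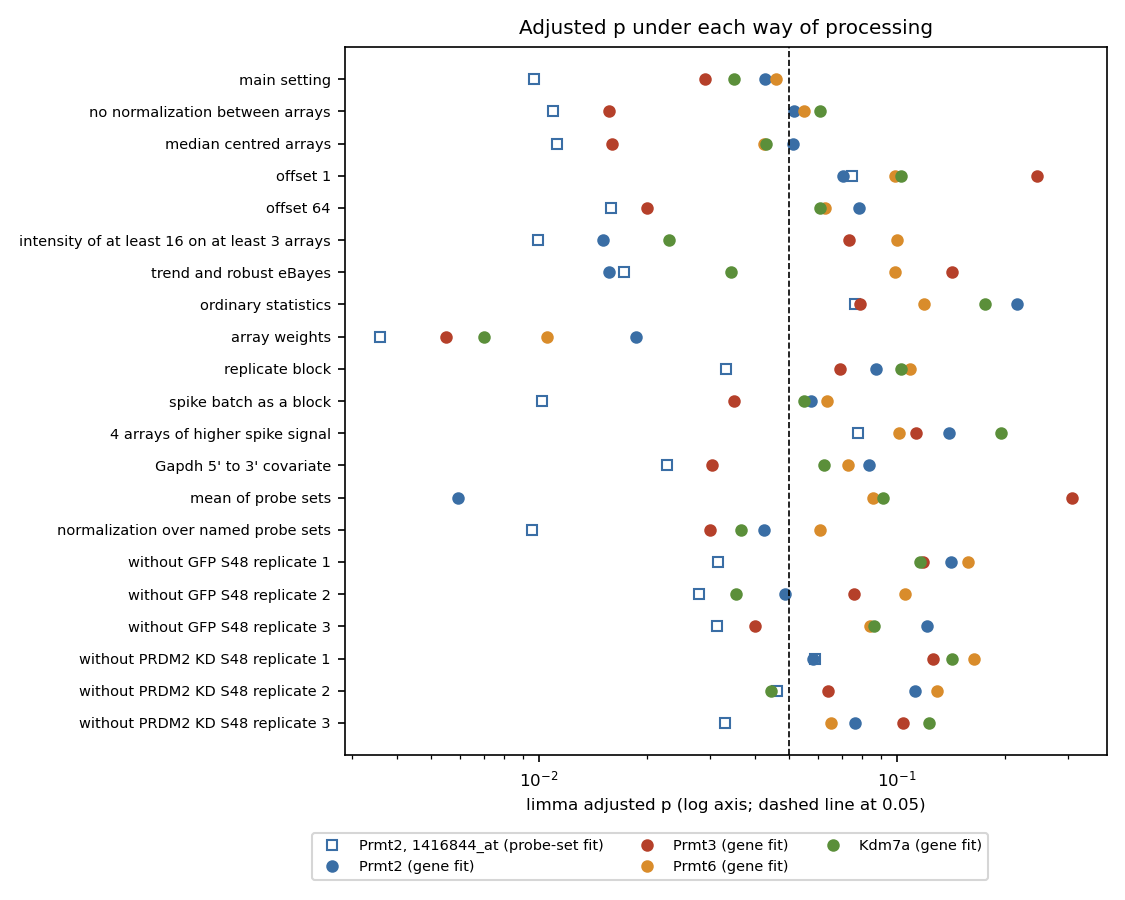
Adjusted p by limma (log axis, dashed line at 0.05) under the main setting and each alternative for Prmt2, Prmt3, Prmt6 and Kdm7a in the gene fit and for 1416844_at of Prmt2 in the probe-set fit. Most points of the 4 genes lie to the right of 0.05, whereas 1416844_at lies left of it in the main setting and 15 of 19 alternatives. The setting called spike batch groups the arrays by lower and higher spike signal.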

How the data were processed

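Expression was measured on 6 Affymetrix arrays of C2C12 cells, 3 per group, from 8 µg of total RNA per the labels' protocols. The values the authors deposited are 1 linear intensity per probe set and array, and the submitters' processing notes list GCOS and PLIER, giving no version or role. Background correction and scaling are not given in the sources used here. In R 4.3.3 with limma 3.58.1, 64 control probe sets were left out and log2(intensity + 16) was quantile normalized, so differences of dim probe sets are understated and need not equal ratios of the intensities beside them. Knockdown was compared with control over all 6 arrays with limma's lmFit and eBayes, adjusting p by Benjamini-Hochberg over all rows, in a fit of 18193 genes, each represented by its probe set of highest mean, and in a fit of 34945 probe sets. The number of arrays limits the precision. The test was also run on simulated data.

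Gene names are those of the platform annotation; 9160 probe sets had no symbol and 932 had several. The members, gene lists and tests were chosen with earlier results of these data known. Values on each array are given for members past the threshold in either fit and for the 10 other members of largest difference brighter than the median gene (31.2), with at least 1 example per role, and for the passing or largest gene of each partner list. Kdm8, Wdr82's and Adk's array values and the probe sets that go against or beyond a gene's representing one were added after their values were seen. Array numbers were not taken to pair the arrays. Alternatives covered normalization, offset, filter, variance model, probe set choice, blocks, a covariate and each array left out.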

Additional observations from a re-analysis of the deposited data

How the results depend on the processing

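The 4 passing genes were 1 without normalization, 0 with an offset of 1, 1 with an offset of 64 and 2 with a filter at 16. They were 2 with trend and robust eBayes, 0 with ordinary statistics (5 at an unadjusted p under 0.05) and 0 with the replicate block. With lower against higher spike signal as a block 1 passed, and on the 4 arrays of higher spike signal 0. The Gapdh covariate gave 1, the mean of probe sets gave 1, and leaving out 1 array gave 0 to 2. The 2 passing probe sets were 0 with an offset of 1, with ordinary statistics and on the 4 arrays, 8 with array weights, 1 with the replicate block and 0 to 1 with 1 array left out. The 9 genes without overlap were 20 on the 4 arrays and 11 to 16 with 1 array left out, where fewer arrays make separation easier. The share of all genes without overlap was not counted there. The 1 passing partner gene was 2 without normalization, with median centring and with the Gapdh covariate, 0 with ordinary statistics (11 at an unadjusted p under 0.05), 4 with array weights and 1 to 2 with 1 array left out. The members' median of -0.02 became 0.0398 without normalization, 0.0581 with median centring and -0.0586 to 0.0346 with 1 array left out. Kmt2c turned to -0.0404 on the 4 arrays and -0.0552 with the Gapdh covariate. With 1 array left out, Kmt2c ran from -0.118 to 0.731, Setd1a from -1.02 to 0.0581 and Kdm5b from -0.352 to 0.0692. All genes past the threshold numbered 938 (5.16%), with 211 to 1615 over the alternatives and 444 to 815 with 1 array left out. Their share was 5.07% without normalization, 5.3% with median centring, 4% with an offset of 1 and 3.73% with an offset of 64. The share of all probe sets past the threshold was not counted under the alternatives. Deviations of same-numbered arrays from their group means correlated at 0.342, 0.00746 and 0.116, and not every array correlated best with its own number, so the replicate block is given here only. The cause of these changes was not tested.

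Limits: the replicates share a pool by the labels, most probe sets lie near background, and the Gapdh ratio and spike signal vary between arrays. Normalization over named probe sets, counts of separate groups and partner counts under the alternatives were chosen after seeing the data.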

Other observations

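The annotation gives the probe set 1440346_at both Kdm6b and 1700064E03Rik, so it was not counted with the members. It read 58.8, 32.7 and 55.8 on knockdown arrays and 62.5, 201 and 33.5 on control arrays, with control array 2 far above the rest and a difference of -0.64 on the log2 scale.

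Outside the symbol rule stood Carm1, an arginine methyltransferase of the same family as the PRMT genes. It read 298, 198 and 326 on knockdown arrays and 151, 195 and 132 on control arrays. The groups did not overlap, and the log2 difference of 0.63 did not pass (limma adjusted p = 0.145). Jmjd6, a JmjC hydroxylase of lysine, read 199, 186 and 163 on knockdown arrays and 407, 206 and 425 on control arrays, also without overlap or a call (log2 difference -0.89, limma adjusted p = 0.206). Jarid2, a JmjC protein of a Polycomb complex, read 94.1, 74.7 and 106 on knockdown arrays and 96.8, 221 and 147 on control arrays, with overlapping groups (log2 difference -0.71, limma adjusted p = 0.256). These genes were chosen after their values were seen.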
